A study of Homo sapiens with 8 samples.

Results

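The IGF binding proteins are the 7 genes IGFBP1 to IGFBP7, of 11963 genes measured, here followed in 4 human ovarian cancer cell lines given a double-stranded RNA. All 14 probe sets whose single gene symbol in the platform annotation is one of the 7 were taken, out of 22215 probe sets on the arrays that are not array controls. IGFBP5 has 5 probe sets, IGFBP7 has 3, IGFBP3 has 2, and IGFBP1, IGFBP2, IGFBP4 and IGFBP6 have 1 each. The family was chosen by its treated minus untreated differences in these same arrays, above all those of IGFBP5, which had opposite signs between lines. Those differences are therefore a description and carry no test.

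The proteins IGFBP1 to IGFBP6 are secreted and bind insulin-like growth factors IGF1 and IGF2 with high affinity, which keeps the growth factors from their receptor IGF1R or carries them to it. Proteases such as PAPPA cut the binding proteins and release the growth factor, and several members also act on cells without binding it. IGFBP7 binds the growth factors weakly and is also known as a vessel and matrix protein. IGFBP3 is the main carrier in blood, and IGFBP5 binds strongly to extracellular matrix.

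Expression was measured on 8 Affymetrix arrays, 1 with pI:pC and 1 untreated for each of the established lines OVCAR-3, CAOV-3, DOV-13 and SKOV-3. pI:pC is polyriboinosinic:polyribocytidylic acid, a synthetic double-stranded RNA sensed by cells as viral RNA would be, and the comparison asks what its addition to the medium changes. Treated and untreated cells shared a culture medium with bovine serum. The labels mention several pI:pC concentrations but tie no dose and no time to an array. Values are log2 expression levels made by the authors with RMA, a method that corrects background, brings arrays to 1 scale and joins each probe set's probes into 1 value. The array medians lay between 6.19 and 6.30, and precision is limited by how few arrays there are. With 1 array per condition in each line, no replicate check and no test exist within a line, and nothing says whether an array held 1 culture or several. Arrays measure bulk RNA, so fewer expressing cells and less RNA per cell cannot be told apart.

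The lines carried the epithelial markers unevenly. Of 10 epithelial and ovarian carcinoma markers, 7 lay at or above the array median in SKOV-3, 5 in DOV-13, 8 in CAOV-3 and 10 in OVCAR-3, with the same counts on the pI:pC and the untreated arrays. The E-cadherin gene CDH1 was dim in SKOV-3 (3.89 with pI:pC, 3.74 untreated) and DOV-13 (3.96 and 3.58). MUC16 and WT1 were also below the median in both lines, while KRT7, KRT8, KRT18, KRT19 and PAX8 were above it in both. EPCAM and MUC1 were above it in SKOV-3 and below it in DOV-13. At most 1 of 9 endothelial and 1 of 8 measured leukocyte markers reached the median on any array. Of 10 fibroblast markers, 2 or 3 did on each array. The median difference of 9 genes induced by interferon was 0.126 in SKOV-3, 0.202 in DOV-13, 2.115 in CAOV-3 and 3.203 in OVCAR-3. In SKOV-3 single genes went beyond that median: IFI44 read 6.88 with pI:pC and 5.40 untreated, and IFIT1 6.12 and 5.31. Both IFIT1 readings were below the median of the array pair (6.231). In DOV-13, IFI6 (0.59) and MX1 (0.44) lay above the central 95% of all probe sets (-0.286 to 0.355) and IFIT2 (-0.35) below it. IFIT1 (-0.01) and OAS1 (-0.05) were also lower in DOV-13.

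The promoters of IGFBP5 and IGFBP3 are printed because these members had the largest differences of the family between pI:pC and untreated cells, in CAOV-3. Each is 300 bases of RefSeq sequence in the build GRCh38.p14, 250 before and 50 after the annotated start, on the minus strand, with a TATA-like match in capitals.
IGFBP5 (chr2:216695500-216695799): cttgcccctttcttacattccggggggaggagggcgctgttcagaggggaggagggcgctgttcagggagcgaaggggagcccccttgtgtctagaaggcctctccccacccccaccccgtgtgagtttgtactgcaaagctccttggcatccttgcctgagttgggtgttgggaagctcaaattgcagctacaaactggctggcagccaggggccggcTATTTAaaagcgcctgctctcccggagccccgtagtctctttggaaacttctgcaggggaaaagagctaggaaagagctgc
IGFBP3 (chr7:45921223-45921522): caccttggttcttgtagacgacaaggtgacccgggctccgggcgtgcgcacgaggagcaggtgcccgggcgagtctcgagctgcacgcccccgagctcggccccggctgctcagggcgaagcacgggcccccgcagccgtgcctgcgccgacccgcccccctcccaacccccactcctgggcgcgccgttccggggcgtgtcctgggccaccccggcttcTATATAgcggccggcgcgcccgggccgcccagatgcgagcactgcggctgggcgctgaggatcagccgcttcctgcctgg
The letters TATTTA stand at bases 220 to 225 of the IGFBP5 window, ahead of the start, and 12.6% of 35116 promoters of that length hold them on either strand. TATATA stands at bases 221 to 226 of the IGFBP3 window and occurs in 3.99% of those promoters. Searched on both strands, the interferon response core (GAAA, any 2 bases, GAAA; 3.57% of promoters), the GAS letters TTCNNNGAA (7.66%) and the AP-1 letters TGANTCA (7.71%) had no match in either window, which says only that these letters are not there. The letters TATAAA (11.5%) had none either, and the GC box GGGCGG (45.0%) was met on the reverse strand at bases 153 to 158 and 245 to 250 of the IGFBP3 window. The IGFBP3 promoter held 36 CpG pairs at a GC content of 74.7%, the IGFBP5 promoter 9 at 59.0%. IGFBP5 and IGFBP2 lie on chromosome 2 with no other protein-coding gene starting between them, and IGFBP3 and IGFBP1 are neighbours on chromosome 7 in the same way.

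The largest differences of the family were in CAOV-3, where IGFBP5 was lower and IGFBP3 higher with pI:pC. In each line a probe set was counted when its arrays differed by at least 1 (log2) and the brighter of them was no dimmer than the median of that array pair. In CAOV-3, 2 IGFBP3 probe sets were counted higher and 2 IGFBP5 probe sets lower, while 0.725% of all probe sets were counted higher and 0.135% lower. None of the 14 was counted in SKOV-3 (0.0045% of all higher and 0.0135% lower), DOV-13 (0.018% and 0.009%) or OVCAR-3 (0.144% and 0.009%). The differences nearest to 1 on either side were 1.32 for IGFBP3 in CAOV-3 and 0.86 for IGFBP5 in DOV-13.

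IGFBP5 had differences of opposite sign in CAOV-3 and DOV-13. Its brightest probe set, 211959_at, had a log2 level of 8.44 in SKOV-3, 7.55 in DOV-13, 7.67 in CAOV-3 and 6.93 in OVCAR-3 with pI:pC. The untreated levels were 8.36 in SKOV-3, 6.68 in DOV-13, 9.75 in CAOV-3 and 7.07 in OVCAR-3. The ranges of treated and untreated arrays overlapped: untreated CAOV-3 was the highest of the 8 arrays and untreated DOV-13 the lowest. The difference was -2.08 in CAOV-3, 4.23-fold lower with pI:pC, and 0.86 in DOV-13, 1.82-fold higher. In SKOV-3 it was 0.08 and in OVCAR-3 -0.14, both within the range that held the central 95% of all probe sets (-0.394 to 0.352 and -0.344 to 0.342). In CAOV-3, 1 other of the 22215 probe sets was lower by as much. In DOV-13, 10 others were higher by as much.

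The other IGFBP5 probe sets were dimmer, and all had the sign of 211959_at in CAOV-3 but not all in DOV-13. 203424_s_at read 5.21 with pI:pC and 6.56 untreated in CAOV-3, a difference of -1.35, and only that untreated array was above its median. In DOV-13 the same probe set read 4.89 and 5.14, a difference of -0.26, opposite in sign to 211959_at. It had 5.76 and 5.67 in SKOV-3 and 5.12 and 4.65 in OVCAR-3, where its 0.48 was the largest difference of any IGFBP probe set. 211958_at followed the sign of 211959_at in all 4 lines at lower levels. It read 5.35 with pI:pC and 4.83 untreated in DOV-13 (0.52), and 4.86 and 5.55 in CAOV-3 (-0.69). In SKOV-3 it read 5.62 and 5.57, and in OVCAR-3 4.58 and 4.61. 203425_s_at and 203426_s_at stayed between 4.58 and 5.00 on all 8 arrays, below the median, with differences from -0.10 to 0.28. Taken by sign, all 5 probe sets were lower with pI:pC in CAOV-3 and 4 of 5 were higher in DOV-13, where the median over all probe sets was 0.0356. These signs belong to the differences that chose the family and lend it no support. In CAOV-3, 203425_s_at and 203426_s_at differed by only -0.06 and -0.04, and 8894 and 9587 other probe sets were lower by as much. For probe sets this dim, RMA shrinks a difference towards 0.

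IGFBP3 was higher with pI:pC in CAOV-3 on both of its probe sets. 210095_s_at had 11.90 in SKOV-3, 8.54 in DOV-13, 9.97 in CAOV-3 and 11.19 in OVCAR-3 with pI:pC. Without it the levels were 11.83 in SKOV-3, 8.50 in DOV-13, 8.65 in CAOV-3 and 11.32 in OVCAR-3. Treated CAOV-3 thus lay between DOV-13 and OVCAR-3, and untreated CAOV-3 was next to DOV-13, so the ranges of treated and untreated arrays overlapped. The difference in CAOV-3 was 1.32, or 2.49-fold, and the other 3 lines lay between -0.13 and 0.06. The second probe set, 212143_s_at, read 8.92 with pI:pC and 7.58 untreated in CAOV-3, a difference of 1.34. It had 10.86 and 10.96 in SKOV-3, 7.67 and 7.79 in DOV-13, and 10.27 and 10.15 in OVCAR-3. The probe sets disagreed in sign in SKOV-3, DOV-13 and OVCAR-3, where all differences were at most 0.13 in size. In CAOV-3, 103 other probe sets were higher by as much as 210095_s_at and 97 by as much as 212143_s_at.

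**Figure D1:**
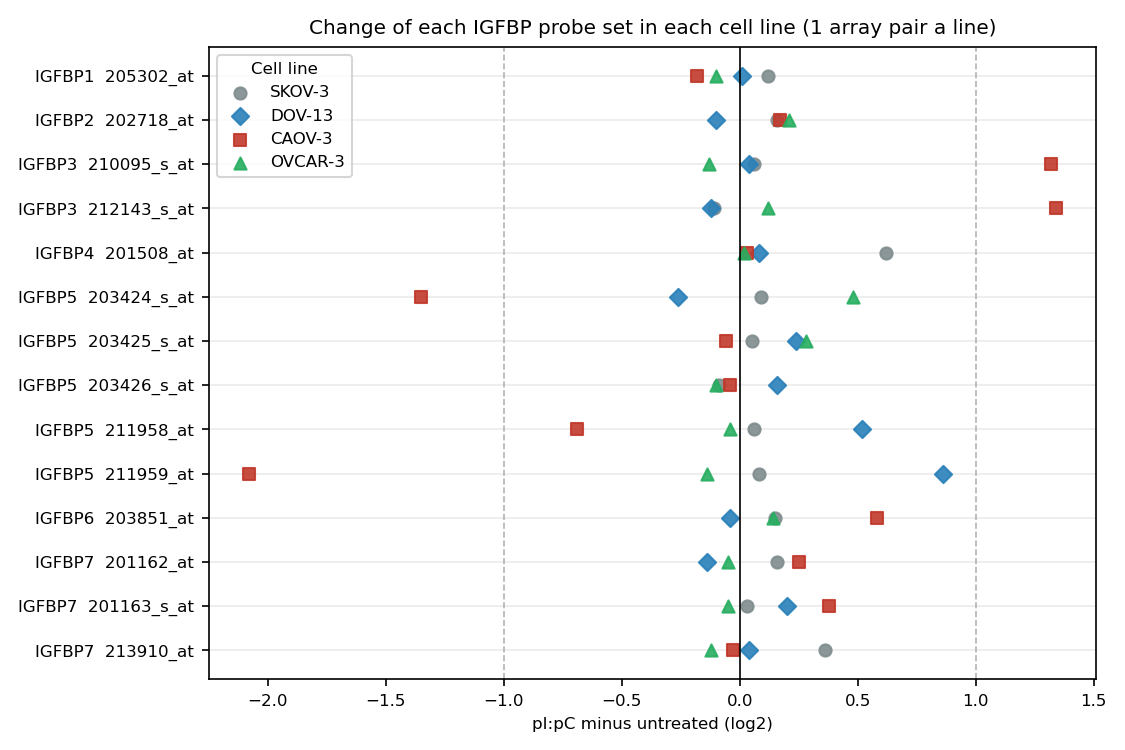
Treated minus untreated log2 difference of each IGFBP probe set (rows) in each cell line (symbols), 1 array pair a line and so no error bars; dashed lines mark a difference of 1. The CAOV-3 squares of IGFBP5 211959_at (-2.08) and 203424_s_at (-1.35) lie far left and those of IGFBP3 (1.32 and 1.34) far right, and the DOV-13 diamond of 211959_at lies at 0.86.

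The remaining members differed by less than 1 in every line. IGFBP6, which prefers IGF2, had 10.48 in SKOV-3, 9.43 in DOV-13, 9.40 in CAOV-3 and 6.68 in OVCAR-3 with pI:pC, against 10.33, 9.48, 8.82 and 6.54 untreated. Its difference was largest in CAOV-3, at 0.58, outside the central range of all probe sets there (-0.456 to 0.515). IGFBP4, an inhibitor of IGF action cut by PAPPA, read 6.25 with pI:pC and 5.63 untreated in SKOV-3. Its difference of 0.62 was outside the central range there (-0.394 to 0.352), and 18 other probe sets were higher by as much. Its other lines had differences of 0.08 in DOV-13 (8.14 and 8.06), 0.03 in CAOV-3 (6.91 and 6.87) and 0.02 in OVCAR-3 (7.34 and 7.32), so it was higher in all 4. The SKOV-3 values lay on either side of the median of their array pair.

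IGFBP7 and IGFBP2 had small differences at levels that varied widely between lines. The IGFBP7 probe set 201163_s_at had 10.83 in SKOV-3, 11.28 in DOV-13, 10.48 in CAOV-3 and 8.12 in OVCAR-3 with pI:pC, against 10.80, 11.08, 10.10 and 8.17 untreated. 201162_at read 10.51, 10.39, 9.53 and 7.59 in the same order with pI:pC, against 10.35, 10.52, 9.28 and 7.63 untreated. Both were higher in CAOV-3, by 0.38 and 0.25, within the central range there, and they differed in sign in DOV-13 (0.20 and -0.14). The third IGFBP7 probe set, 213910_at, stayed between 3.65 and 4.12, below the median on all 8 arrays. Its difference of 0.36 in SKOV-3 lay just above the central range there (-0.394 to 0.352). IGFBP2, which is raised in the serum of many patients with ovarian cancer, had 5.24 in SKOV-3, 5.02 in DOV-13, 7.44 in CAOV-3 and 9.50 in OVCAR-3 with pI:pC. Its untreated levels were 5.09, 5.12, 7.26 and 9.29, so no difference exceeded 0.21 in size. IGFBP1, made mainly by liver and decidua, was below the median on all 8 arrays, with 4.99 in SKOV-3, 3.77 in DOV-13, 3.59 in CAOV-3 and 3.47 in OVCAR-3 with pI:pC and 4.87, 3.76, 3.77 and 3.57 untreated.

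**Figure D2:**
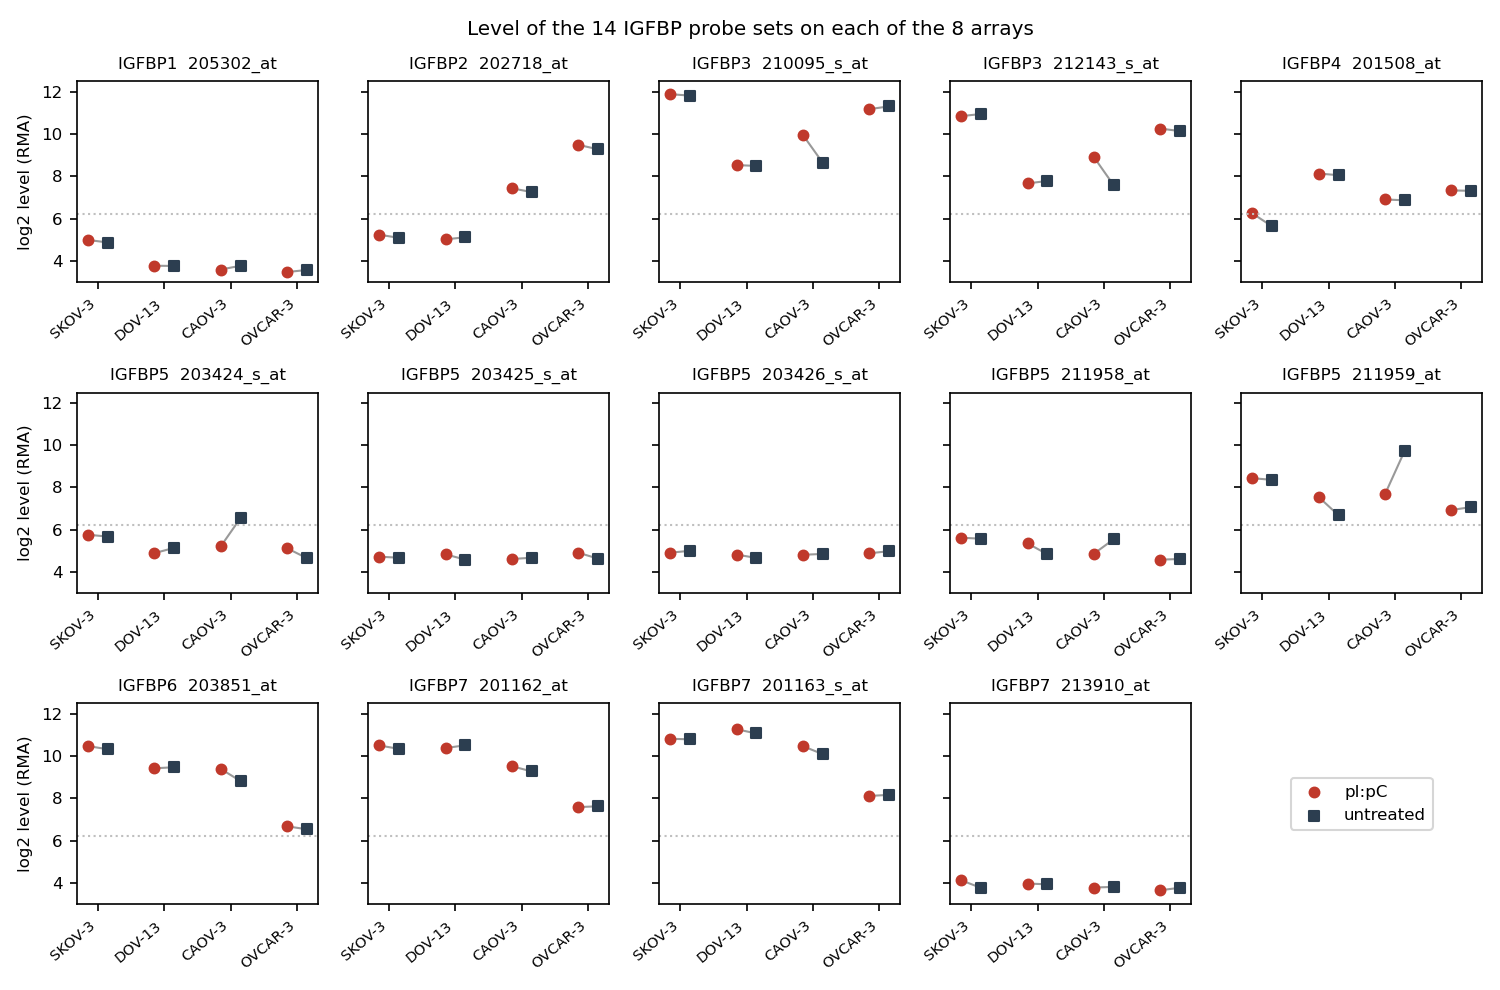
Log2 level of each IGFBP probe set (panels) in the 4 lines, with the pI:pC array (circle) left of the untreated array (square) and a grey line joining them; the dotted line is the mean of the 4 array-pair medians. IGFBP3 in CAOV-3 stands at 9.97 with pI:pC and 8.65 untreated on 210095_s_at, and IGFBP5 at 7.67 and 9.75 on 211959_at.

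Over the 4 lines together the fit gave no call for any probe set. With limma, blocking on cell line, 0% of all probe sets passed in either direction (smallest adjusted p = 0.996, and 855 at an unadjusted p under 0.05). The IGFBP differences were used to choose the family, so nothing is read from this fit about them. Over the lines the mean difference of 211959_at was -0.32 ± 1.25 and that of IGFBP3 210095_s_at 0.32 ± 0.67 (SD, n = 4 lines), with the SD larger than the mean in each.

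The levels of 10 of the 14 probe sets differed between lines. The line means compared here were not used to choose the members. They were tested with limma on all probe sets, averaging the pI:pC and the untreated array of a line. Adjustment was over the 6 pairs of lines and all probe sets together. The error is the spread of the treatment difference over the lines, not of separate cultures. Those differences chose the family, so SE and p-values, above all of IGFBP5 and IGFBP3, are not independent of the choice. These 10 passed in at least 1 pair, as did 72% of all probe sets, so such a share is not particular to the family. Of the 14, 6 passed for SKOV-3 against DOV-13 (36.4% of all), 8 for SKOV-3 against CAOV-3 (46.5%) and 7 for SKOV-3 against OVCAR-3 (46.7%). Further, 4 passed for DOV-13 against CAOV-3 (46.1%), 7 for DOV-13 against OVCAR-3 (45.8%) and 8 for CAOV-3 against OVCAR-3 (46.9%). The SKOV-3 against OVCAR-3 count was 11 without CAOV-3 (47.7% of all probe sets), and the SKOV-3 against DOV-13 count was then 9 (37.4%). The gained probe sets were of IGFBP3 and IGFBP5. The large CAOV-3 differences of those probe sets then leave the error, so the gain follows in part from which line was left out.

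IGFBP2 had the widest range of levels, 4.48 on the log2 scale over the 8 arrays. Its line means were 5.16 in SKOV-3, 5.07 in DOV-13, 7.35 in CAOV-3 and 9.39 in OVCAR-3. DOV-13 minus OVCAR-3 was -4.32 ± 0.10 (SE, limma adjusted p = 9.07e-08), CAOV-3 minus OVCAR-3 was -2.04 ± 0.10 (limma adjusted p = 3.18e-06), and SKOV-3 and DOV-13, next to each other at the low end, were not told apart (0.09 ± 0.10, limma adjusted p = 0.528).

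IGFBP6 and IGFBP7 had their lowest level where IGFBP2 had its highest, in OVCAR-3. IGFBP6 averaged 10.40 in SKOV-3, 9.45 in DOV-13, 9.11 in CAOV-3 and 6.61 in OVCAR-3. CAOV-3 minus OVCAR-3 was 2.50 ± 0.14 (SE, limma adjusted p = 5.64e-06), SKOV-3 minus DOV-13 was 0.95 ± 0.14 (limma adjusted p = 0.000942), and DOV-13 and CAOV-3 were not told apart (0.34 ± 0.14, limma adjusted p = 0.087, and 0.0499 with eBayes set to trend and robust). IGFBP7 201163_s_at averaged 10.82 in SKOV-3, 11.18 in DOV-13, 10.29 in CAOV-3 and 8.14 in OVCAR-3. CAOV-3 minus OVCAR-3 was 2.15 ± 0.12 (limma adjusted p = 4.63e-06) and DOV-13 minus CAOV-3 was 0.89 ± 0.12 (limma adjusted p = 0.000486). For SKOV-3 minus DOV-13 this probe set had -0.36 ± 0.12 (limma adjusted p = 0.0381, and 0.0567 with arrays centred on their medians), whereas 201162_at had -0.02 ± 0.11 (limma adjusted p = 0.892).

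IGFBP3 was higher in SKOV-3 and OVCAR-3 than in DOV-13 and CAOV-3. The line means of 210095_s_at were 11.87 in SKOV-3, 8.52 in DOV-13, 9.31 in CAOV-3 and 11.26 in OVCAR-3. SKOV-3 minus CAOV-3 was 2.55 ± 0.31 (SE, limma adjusted p = 0.000289) and DOV-13 minus OVCAR-3 was -2.74 ± 0.31 (limma adjusted p = 0.000199). SKOV-3 and OVCAR-3 were not told apart (0.61 ± 0.31, limma adjusted p = 0.153), but without the CAOV-3 arrays they were (limma adjusted p = 0.0016). Leaving those arrays out takes the CAOV-3 difference of 1.32 out of the error, so that call follows in part from the omission. DOV-13 minus CAOV-3 was -0.79 ± 0.31 (limma adjusted p = 0.0724). 212143_s_at gave the same calls in all 6 pairs.

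IGFBP4 was highest in DOV-13, and IGFBP1 had its highest reading in SKOV-3. IGFBP4 averaged 5.94 in SKOV-3, 8.10 in DOV-13, 6.89 in CAOV-3 and 7.33 in OVCAR-3. All 6 pairs passed, DOV-13 minus OVCAR-3 at 0.77 ± 0.15 (SE, limma adjusted p = 0.004), and the closest pair was CAOV-3 minus OVCAR-3 at -0.44 ± 0.15 (limma adjusted p = 0.0474, and 0.0705 without DOV-13). IGFBP1 averaged 4.93 in SKOV-3, 3.76 in DOV-13, 3.68 in CAOV-3 and 3.52 in OVCAR-3. Its 3 pairs with SKOV-3 passed (SKOV-3 minus DOV-13, 1.17 ± 0.10, limma adjusted p = 4.68e-05), at levels below the median in every line. DOV-13 minus OVCAR-3 did not pass (limma adjusted p = 0.082) but did with eBayes set to trend and robust (0.0404).

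The order of the lines for IGFBP5 was not the same on the treated and the untreated arrays, a difference that 1 array per condition and line cannot test. With pI:pC, 211959_at was highest in SKOV-3 (8.44), and CAOV-3 (7.67) and DOV-13 (7.55) were close. Untreated, it was highest in CAOV-3 (9.75) and then SKOV-3 (8.36). The line means were 8.40 in SKOV-3, 7.11 in DOV-13 and 8.71 in CAOV-3, with OVCAR-3 lowest, and there was an SE of 0.56 on each difference, the widest of the family. Of its 6 pairs 1 passed, CAOV-3 minus OVCAR-3 at 1.72 ± 0.56 (limma adjusted p = 0.0391). DOV-13 minus CAOV-3 was -1.60 ± 0.56 (limma adjusted p = 0.0506), and it passed with a minimum level (0.0446), with arrays centred (0.0468) and with adjustment within each pair (0.0491). The call for CAOV-3 minus OVCAR-3 was lost without SKOV-3 (limma adjusted p = 0.0567), with quantile normalization again (0.0534) and with eBayes set to trend and robust (0.216). The dimmer 211958_at, below the median on all 8 arrays, passed for SKOV-3 minus OVCAR-3, with means of 5.60 in SKOV-3 and 4.60 in OVCAR-3 (SE of the difference 0.24, limma adjusted p = 0.00954). Without CAOV-3, SKOV-3 was called on 211959_at above DOV-13 (limma adjusted p = 0.00288) and above OVCAR-3 (0.00193). Leaving out CAOV-3 takes its difference of -2.08 out of the error. These calls thus follow in part from which line was left out.

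Among the IGF ligands and receptors no gene was counted in a line. Of all genes, 1 was counted higher and 2 lower in SKOV-3, and 2 and 1 in DOV-13. In CAOV-3 these were 111 and 17, and in OVCAR-3 27 and 0. Passing the fit does not tell gene lists apart here, since no probe set passed. The 9 interferon genes, with a median mean difference of 1.57, also gave 0. Of the 6 measured, 0 passed in either direction, 3 had a positive and 3 a negative mean difference, and the median of -0.022 stood beside 0.007 over all 11963 genes. IGF1R, the receptor that signals, read 6.85 in SKOV-3, 7.73 in DOV-13, 8.10 in CAOV-3 and 5.32 in OVCAR-3 with pI:pC, against 6.83, 7.70, 8.55 and 4.82 untreated. Its differences of -0.46 in CAOV-3 and 0.49 in OVCAR-3 had opposite signs. IGF2R, which clears IGF2, had 9.36, 9.27, 8.51 and 8.19 in the same order with pI:pC, against 9.24, 9.22, 8.46 and 8.12 untreated, and its mean difference was 0.07 ± 0.03 (SD, n = 4 lines). The insulin receptor gene INSR read 6.07, 6.31, 5.95 and 5.50 with pI:pC, against 6.32, 6.48, 5.71 and 5.59 untreated, a mean difference of -0.07 ± 0.22. IGF1 read 6.19, 5.90, 5.70 and 6.38 with pI:pC, against 5.97, 5.96, 6.03 and 6.73 untreated, a mean of -0.13 ± 0.27. The insulin gene INS had 0.09 ± 0.15 and INSRR -0.10 ± 0.11. IGF2 was not analysed here, since the annotation gives no probe set with it as the single symbol.

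Of 16 measured genes of signalling below the receptors, 0 passed, 8 had a positive and 8 a negative mean difference, and the median was -0.009. The transcription factor gene FOXO1, which AKT holds out of the nucleus, had 0.27 ± 0.21 and AKT1 0.18 ± 0.20 (SD, n = 4 lines). The receptor adaptor genes GRB14 and IRS1 had -0.24 ± 0.15 and -0.21 ± 0.29. No gene of these lists was counted in any line.

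Of the 22 genes for proteases and carriers of the binding proteins, 0 passed, and 3 were counted in a line, all higher in CAOV-3, where 111 of all 11963 genes were counted higher. The complement protease gene C1S, whose product is known to cut IGFBP5, read 10.27 in CAOV-3 with pI:pC and 8.70 untreated, a difference of 1.57. It was 4.72 and 4.84 in SKOV-3, 5.21 and 4.69 in DOV-13, and 5.94 and 6.07 in OVCAR-3. Its partner C1R read 10.66 and 9.30 in CAOV-3, a difference of 1.36. In the other lines C1R lay between 5.84 and 6.29, so both genes were brightest in CAOV-3. The urokinase gene PLAU read 9.22 and 8.16 in CAOV-3. HTRA1, a protease that cuts IGFBP5, had -0.24 ± 0.27 over the lines (SD, n = 4) and 10.37 with pI:pC against 10.70 untreated in CAOV-3. ADAM9 had -0.07 ± 0.10, and PAPPA was below the median on all 8 arrays. The list median was 0.053.

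Proteins related to the family and the IGF2 mRNA-binding proteins gave no call. Among 8 measured related genes 6 had a positive mean difference, the median was 0.027 and 0 were counted. ESM1, a secreted proteoglycan gene with an IGFBP-type domain, was bright in DOV-13, at 10.64 with pI:pC and 9.69 untreated (0.95), and dim in the other lines. CCN3 had 0.08 ± 0.09 and CCN4 -0.09 ± 0.12 (SD, n = 4 lines). IGF2BP3 read 6.71 with pI:pC and 5.87 untreated in CAOV-3 (0.83), and IGF2BP2 had -0.02 ± 0.17.

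**Figure D3:**
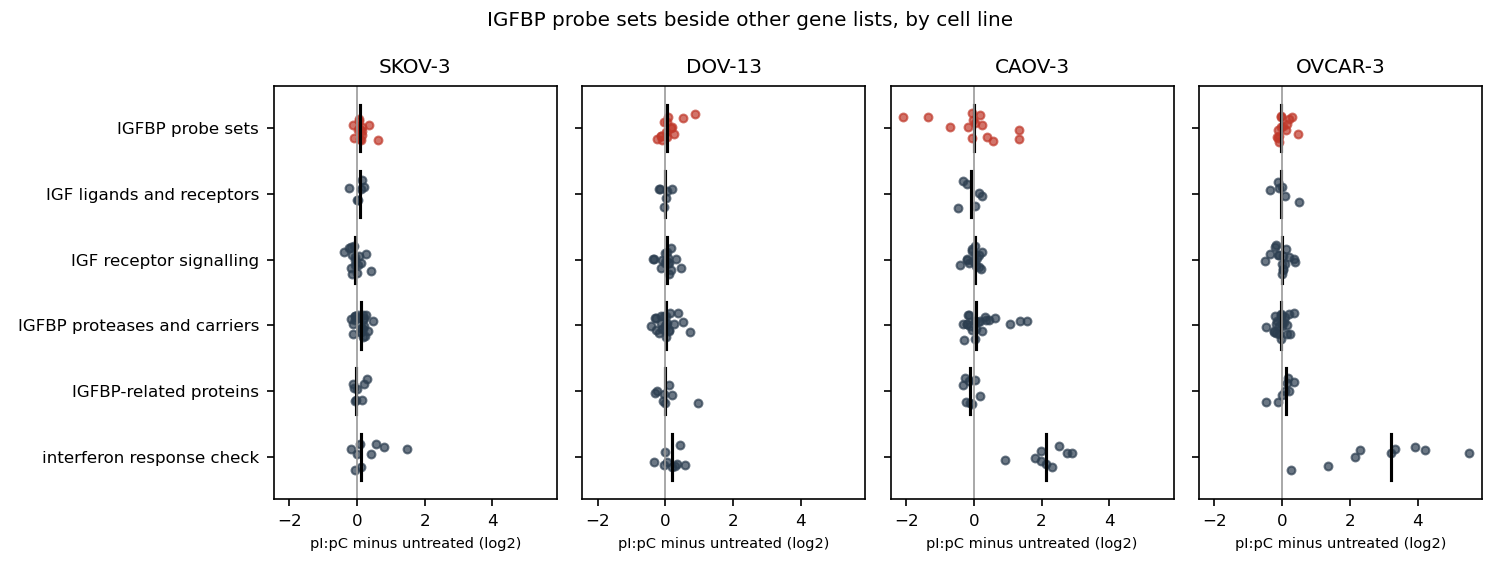
Treated minus untreated log2 difference in each line (panels, on 1 shared axis) of the 14 IGFBP probe sets (red) and of the genes of 5 lists (dark, 1 probe set a gene, spread vertically at random within a row); black bars are medians. The interferon genes lie right of 0 in CAOV-3 (median 2.115) and OVCAR-3 (3.203), while IGFBP probe sets beyond 1 in size are seen in CAOV-3 alone.

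In OVCAR-3, IGFBP5 differed by -0.14 on 211959_at and by 0.48 on 203424_s_at, the second outside the central 95% of all probe sets there, and IGFBP3 differed by -0.13 on 210095_s_at. The 9 interferon genes averaged 10.71 with pI:pC and 8.57 untreated in CAOV-3, and 8.68 and 5.76 in OVCAR-3. Whether the responses of CAOV-3 and OVCAR-3 differ was not tested, for want of a second array pair. Beside them, the mean level of the 10 fibroblast markers was 5.08 with pI:pC and 5.08 untreated in CAOV-3, and the range over the lines was 5.08 to 5.49 with pI:pC and 5.08 to 5.44 untreated. CD14, 1 of the 8 leukocyte markers, was 6.15 with pI:pC and 7.06 untreated in CAOV-3. The other leukocyte markers were dim there on both arrays, from LYZ (3.58 with pI:pC) to CD3E (5.79 with pI:pC). Any part of CD14 in the result was not tested.

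Other genes shared the pattern of the members to a different degree. For IGFBP5, the genes with the 4 treated minus untreated differences closest to those of 211959_at were ID4, AGR2, ACO1, RCAN2 and NLGN1, at Euclidean distances of 0.81 to 1.07. ID4, an inhibitor of basic helix-loop-helix factors, had -0.16 in SKOV-3, 0.10 in DOV-13, -2.11 in CAOV-3 and -0.27 in OVCAR-3. AGR2, a secretory pathway protein gene, had 0.15 in DOV-13 and -1.51 in CAOV-3. ACO1 had 0.09 and -1.57 in the same order, and RCAN2 0.04 and -1.62. NLGN1, a synaptic adhesion gene, had 0.74 in DOV-13 and -1.05 in CAOV-3. Of these genes only NLGN1 lay outside the central 95% of all probe sets in DOV-13 (-0.286 to 0.355), so the others matched mainly in CAOV-3. By correlation of level over the 8 arrays, which are 4 lines of 2 arrays and give r no error, the closest genes to IGFBP2 were FOXL2 (r = 0.998), APTX (0.998) and PLTP (0.997). For IGFBP7 they were CAPG (0.995), HK1 (0.994) and CD44 (0.993), for IGFBP6 UBR4 (0.994), CDT1 (0.993) and NUCB2 (0.992), and for IGFBP4 WDR6 (0.984), LYPD1 (0.975) and CLGN (0.974). For IGFBP3 they were NOL6 (0.982), EXOSC10 (0.980) and UBAP1 (0.977), and for IGFBP1 OSGIN2 (0.994), THOC6 (0.992) and MAPRE2 (0.992). IGFBP5 had the weakest match, UBL3 at 0.878, followed by LAGE3 (0.872) and PRAF2 (0.865). Its r takes in the differences in CAOV-3 and DOV-13 that chose the family, so this rank is not separate from the choice. All genes named by correlation were picked as the closest of 3526 searched.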

How the data were processed

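The log2 expression levels were deposited by the authors as 1 table of 22277 probe sets and 8 arrays. RMA is the tool that the submitters' processing notes name; its version, and whether the arrays were run as 1 set, were not stated there or in the labels. Removing 62 array controls left 22215 probe sets, of which 19064 carry 1 gene symbol in the platform annotation. Groups and lines came from the sample labels.

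Treated minus untreated over the lines was fitted with limma (version 3.58.1, R 4.3.3; lmFit, eBayes) with the cell line as a block, two-sided, Benjamini-Hochberg over all probe sets, threshold 0.05, with 3 residual and 4.59 prior degrees of freedom. The cell line pairs the arrays, and deviations from the group means correlated at 0.936 to 0.965 within pairs. Line levels were contrasts of the same fit. Genes in lists were read from their probe set with the highest mean. The named genes were all members, IGF1, IGF1R, IGF2R and INSR, in each list the 2 largest mean changes each way and every gene counted in a line, and the closest genes by level (SD over arrays at least 0.5) or difference. Other named list genes were chosen after their values were seen. The members and lists were chosen with earlier results of these data known. Tested on simulated data, with the same shift in all treated arrays or in both arrays of 1 line, both fits recovered nearly all changed probe sets. The line fit called more unchanged ones than its threshold allows. Treatment changes that differ between lines were not simulated. In the data, 0 of the 9 interferon genes passed the treatment fit. Alternatives were fits without the block, a level filter, 1 probe set or the mean of all probe sets a gene, 2 normalizations, eBayes with trend and robust, other thresholds and leaving out each line.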

Additional observations from a re-analysis of the deposited data

Results flagged for a closer look

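Each probe set gave 3 sets of 4 values, the pI:pC arrays, the untreated arrays and the 4 differences. In a few of these sets 1 value stood far from the other 3, as chance gives in about 1 set in 20. Most are differences of the kind that chose the family, so their number is not set against chance. They were the untreated IGFBP1 level in SKOV-3 (4.87, the highest), the IGFBP2 difference in DOV-13 (-0.10, the lowest), the IGFBP3 differences in CAOV-3 (1.32 on 210095_s_at and 1.34 on 212143_s_at, the highest) and the IGFBP4 difference in SKOV-3 (0.62, the highest). IGFBP5 differed in opposite directions by at least 0.5 in 2 lines, on 211959_at with 0.86 in DOV-13 and -2.08 in CAOV-3, and on 211958_at with 0.52 in DOV-13 and -0.69 in CAOV-3. That difference between lines was not tested, because each line has 1 array pair.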

How the results depend on the processing

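No probe set passed over the lines under any alternative run, with 0 calls with the cell line as a replicate block and 0 without it (smallest adjusted p = 1). The smallest adjusted p was 0.225, without SKOV-3. The count of other IGF axis genes that passed was 0 throughout, also when each line was left out. As no probe set passed at all, this is no result about those genes. At 1.5-fold in place of 2-fold, 1 IGFBP probe set was counted higher in SKOV-3 and 1 in DOV-13, where 0 were counted at 2-fold. The share of all probe sets counted at 1.5-fold was not worked out, so nothing is read from this about the family. The other counts within lines stayed within 1.5 times. Quantile normalization again moved no IGFBP difference by more than 0.069 and centring none by more than 0.047, and the signs that changed belonged to differences of at most 0.051 in size. For levels between lines, leaving out a line gave 6 to 9 IGFBP probe sets for SKOV-3 minus DOV-13 (33.5% to 37.4% of all probe sets). It gave 8 for SKOV-3 minus CAOV-3 (43.5% to 44.2%) and 7 to 11 for SKOV-3 minus OVCAR-3 (44.4% to 47.7%). For DOV-13 minus CAOV-3 the count was 4 (43% to 47.2%). The counts were 7 to 8 for DOV-13 minus OVCAR-3 (46.8% to 46.9%) and 7 to 8 for CAOV-3 minus OVCAR-3 (44.5% to 48.2%). The signal over background of single probes is not given, so how far dim probe sets understate a difference was not tested.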
